A study of Mus musculus with 114 samples.

Results

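Genes of the circadian clock, 10 in number, were followed in adipocytes of chow-fed and high-fat-fed mice: Arntl, Clock, Per1, Per2, Per3, Cry2, Nr1d1, Nr1d2, Dbp and Tef. They were taken by symbol, and all 10 were found among the 29132 genes of the table. Male C57BL/6J mice aged 6 weeks were placed on chow (CD) or on a high-fat feed with 60% of its energy as fat (HFD) and were taken after 8, 20 or 34 weeks of feeding. Adipocytes that floated after collagenase digestion of the perigonadal fat pad were sequenced. The groups held 6 CD and 6 HFD mice at 8 weeks, 6 and 6 at 20 weeks, and 8 and 6 at 34 weeks, or 38 mice in all. Time on diet and age rose together, so the 2 cannot be told apart within a diet. Mice were kept in a standard light and dark cycle and had food withdrawn in the early morning of the last day until mid-morning, but no hour of collection is given for any single mouse.

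The clock is a loop of transcription factors that runs in almost every cell. ARNTL (also called BMAL1) pairs with CLOCK on E-boxes and activates the Per and Cry genes, whose proteins return to block the pair. The nuclear receptors encoded by Nr1d1 and Nr1d2 (REV-ERB alpha and beta) are activated by the same pair and repress Arntl, while DBP and TEF carry the rhythm to further genes through D-boxes. In mouse peripheral tissues Arntl RNA peaks around the end of the night, Nr1d1 during the day, and Dbp and the Per genes later, so that a single sample taken at an unknown hour reports the level and the phase of the clock together. In adipose tissue the clock is known for timing lipid storage and release.

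Short promoter windows of the members were searched for the letters of 3 motifs. RefSeq windows from 250 bases before to 50 bases after a transcription start (build GRCm38.p6) were at hand for 9 of the 10 genes, all but Per2. They were searched on both strands for the E-box CACGTG, the D-box TTANGTAA (TTACNTAA on the other strand) and the nuclear receptor half-site AGGTCA, and these letters do not overlap one another in the stretches printed. Of all 32851 windows, 7.15% held the E-box, 2.32% the D-box and 16.3% the half-site. The E-box was in 1 of 2 windows of Per1 and in both windows of Tef, the D-box was in Per3 at 2 places, and the half-site was in Nr1d2, in the same window of Per1 as the E-box, in 1 of 3 windows of Clock and in 1 of 2 windows of Arntl. None of these letters was in the windows of Cry2, Nr1d1 or Dbp. Shown 5′ to 3′ on the gene's strand, with the named motif in capitals, are 100 bases around the E-box of Per1 (chr11:69098736-69098835, plus strand) and of Tef (chr15:81802499-81802598, plus strand), the D-boxes of Per3 (chr4:151044794-151044893, minus strand) and the half-site of Nr1d2 (chr14:18239131-18239230, minus strand), chosen to show each of the 3 motifs in a period gene, a D-box factor or a nuclear receptor. A match describes letters and says nothing of binding, and sites outside these windows were not searched.
Per1: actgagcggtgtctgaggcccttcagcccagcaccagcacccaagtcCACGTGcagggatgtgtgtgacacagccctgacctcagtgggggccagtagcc
Tef: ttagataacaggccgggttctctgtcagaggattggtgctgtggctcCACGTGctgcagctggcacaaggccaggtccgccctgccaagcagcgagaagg
Per3: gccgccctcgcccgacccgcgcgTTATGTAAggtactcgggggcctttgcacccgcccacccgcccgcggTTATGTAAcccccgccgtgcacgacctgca
Nr1d2: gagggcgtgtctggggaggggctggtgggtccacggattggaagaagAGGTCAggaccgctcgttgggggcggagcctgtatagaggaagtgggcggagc

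Each mouse was covered by 9275711 to 15480388 reads on genes, so that 1 read was worth 0.0646 to 0.108 counts per 1000000 (CPM), the unit of every level below. All 10 genes passed the filter on low values (mean log2(CPM + 1) above 2), as did 10343 genes in all. The 8 adipocyte markers were all present, and their summed level had a median of 53582, 56586 and 42759 CPM in CD mice and of 38349, 27433 and 25628 CPM in HFD mice at 8, 20 and 34 weeks. Gene by gene, 1, 1 and 0 of the 8 were called higher on HFD and 2, 6 and 7 lower. The summed macrophage markers (9 of 10 in the table, none at 0 throughout a group) ranged from 323 to 1548, 908 to 2800 and 858 to 9237 CPM in CD mice and from 903 to 2618, 3518 to 7380 and 3937 to 11108 CPM in HFD mice, so the fractions were not adipocytes alone and macrophage transcripts moved with diet and age. Of these 9 genes, 5, 6 and 8 were called higher on HFD and 0, 1 and 0 lower. Endothelial markers were called higher on HFD in 6, 5 and 6 of 6 genes at the 3 times, and markers of progenitors and fibroblasts in 3, 4 and 3 of 5 tested, with none lower, and their part in the differences below was not tested. The T and B cell markers summed to at most 1.88 CPM in any mouse. In such samples fewer cells of a type and less RNA per cell cannot be told apart.

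HFD mice had lower levels of the D-box factors Dbp and Tef, of Per2 and Per3, and of both nuclear receptors Nr1d1 and Nr1d2 at 8 and 20 weeks, and higher Clock at 8 weeks and Arntl at 20 weeks. At 34 weeks Arntl was higher and Per3, Nr1d1 and Tef were lower. Differences were tested with limma on log2(CPM + 1) over all genes and called at a Benjamini-Hochberg adjusted p under 0.05. At 8 weeks 7 of 10 genes were called, 6 of them lower, where 44.9% of all genes tested were called and 15.1% were called lower. At 20 weeks 7 were called, again 6 lower, against 57% of all genes called and 18.7% called lower. At 34 weeks 4 were called, 3 lower, against 43.2% and 15.7%. The median log2 fold change of the 10 genes was -0.80, -0.76 and -0.36 at the 3 times, beside 0.11, 0.14 and 0.07 over all genes tested. Of all genes tested, 3.38% were lower in HFD mice at all 3 times, and Per3, Nr1d1 and Tef were the members that were.

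**Figure D1:**
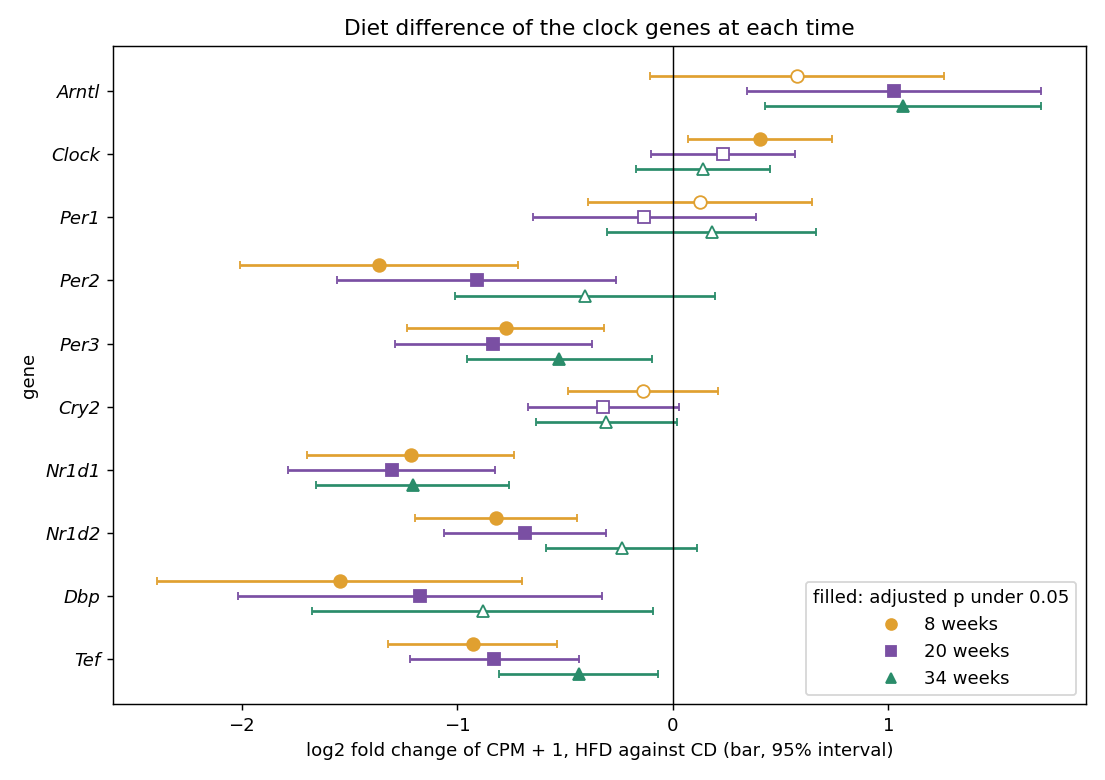
Log2 fold change of CPM + 1 between HFD and CD mice (x axis) for each clock gene (y axis) at 8 weeks (circles), 20 weeks (squares) and 34 weeks (triangles), with 95% intervals and filled symbols for an adjusted p under 0.05. Nr1d1 lies between -1.30 and -1.21 at all 3 times, while Arntl and Clock lie above 0.

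Several of these calls were lost once the level of macrophage transcripts entered the fit. With the mean log2 level of the macrophage markers as a covariate, 5, 2 and 1 of the 10 genes were called at 8, 20 and 34 weeks. Calls over all 10343 genes fell as well, to 3947, 3499 and 1088 from 4648, 5894 and 4468. Nr1d1 was called at each of the 3 times in that fit (log2 fold change -0.91, -0.85 and -0.85), and Nr1d2 was called at 8 and 20 weeks (-0.89 and -0.79). The macrophage level itself differs with diet, and its part in the other differences was not tested further. Scaling also mattered: with TMM factors the median over all genes moved from 0.14 to -0.07 at 20 weeks, and the calls over all genes split into 2718 higher and 3356 lower in place of 3957 and 1937. At 8 weeks the split became 2339 and 2212 in place of 3083 and 1565, and at 34 weeks 2320 and 2149 in place of 2840 and 1628. With TMM factors 6, 8 and 5 of the 10 genes were called.

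Of the activators, Arntl was higher on HFD at 20 and 34 weeks and Clock at 8 weeks. Arntl (Entrez 11865, chr7:113178471-113314126, plus strand) encodes the DNA-binding partner of CLOCK. Its level was 5.37, 10.5 and 14.8 CPM (lowest, median and highest mouse) on CD and 10.7, 15.2 and 20.8 CPM on HFD at 8 weeks. At 20 weeks it was 4.90, 7.52 and 23.2 CPM on CD and 16.2, 19.4 and 23.2 CPM on HFD. The diets overlapped at both times, at 20 weeks through CD mouse 1 alone, which lay above every HFD mouse. At 34 weeks the level was 1.86, 12.6 and 16.8 CPM on CD and 14.7, 21.9 and 28.4 CPM on HFD, with 5 of 6 HFD mice above all 8 CD mice. Log2 fold changes were 0.58 (SE 0.335, adjusted p = 0.157), 1.03 (SE 0.335, adjusted p = 0.00952) and 1.07 (SE 0.314, adjusted p = 0.00672) at 8, 20 and 34 weeks, and without CD mouse 1 the 20-week value was 1.29. With the macrophage covariate Arntl was not called at any time (adjusted p from 0.289 to 0.798), and with edgeR's quasi-likelihood test it was not called at 20 weeks.

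Clock (Entrez 12753, chr5:76209868-76305603, minus strand) encodes the partner with acetyltransferase activity. At 8 weeks its mean was 90.3 ± 13.9 CPM (SD, n = 6) on CD and 119 ± 7.60 CPM (SD, n = 6) on HFD, and 5 of 6 HFD mice lay above all CD mice. The log2 fold change was 0.40 (95% interval 0.07 to 0.74, adjusted p = 0.0425) at 8 weeks. The 8-week call was lost with TMM, with median-of-ratios factors, with edgeR, without the filter, with the macrophage covariate and without any one of 9 mice (CD mice 1, 2, 4 and 6 and HFD mice 1, 3, 4, 5 and 6 of that time). At 20 and 34 weeks the differences of 0.23 and 0.14 were not called (adjusted p = 0.225 and 0.472). Clock was also lower at 34 than at 8 weeks in both diets, as given with the ages.

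Among the repressors, Per2 and Per3 were lower on HFD and Per1 and Cry2 were not called. Per2 (Entrez 18627, chr1:91415977-91459351, minus strand) encodes a scaffold of the repressor complex. Its level at 8 weeks was 67.0, 103 and 143 CPM (lowest, median and highest) on CD and 20.8, 41.5 and 67.8 CPM on HFD. At 20 weeks it was 63.5, 101 and 128 CPM on CD and 26.4, 46.9 and 92.4 CPM on HFD. In all, 5 and 4 of 6 HFD mice lay below every CD mouse at these times, with overlap through the rest. The log2 fold changes were -1.36 (SE 0.317, adjusted p = 0.00101) and -0.91 (SE 0.317, adjusted p = 0.0148), the second of which lost its call without HFD mouse 5 (-0.73) and with the macrophage covariate (-0.85, adjusted p = 0.0868), where the fold was close to that of the fit without it. At 34 weeks both diets were low, at a median of 31.6 CPM on CD and 21.3 CPM on HFD, and the difference of -0.41 was not called (adjusted p = 0.268).

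Per3 (Entrez 18628, chr4:150997018-151044707, minus strand), the period gene with the least effect on rhythm when lost, carried the pair of D-boxes printed above. Its medians were 60.7 CPM on CD and 33.0 CPM on HFD at 8 weeks, 58.6 and 33.3 CPM at 20 weeks, and 28.9 and 19.9 CPM at 34 weeks. Every HFD mouse lay below the CD mean at each time, and 5, 4 and 1 of 6 lay below all CD mice. Log2 fold changes were -0.78 (adjusted p = 0.00606), -0.83 (adjusted p = 0.00212) and -0.53 (adjusted p = 0.0417), and the 34-week call was lost without any one of 8 mice of that time (CD mice 1, 4, 5, 6 and 7 and HFD mice 4, 5 and 6) and in 4 other settings (no filter, macrophage covariate, replicate block and that time fitted alone). With the macrophage covariate Per3 was not called at any time (adjusted p = 0.0552, 0.124 and 0.471).

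Per1 (Entrez 18626, chr11:69095108-69109965, plus strand) is the period gene that also answers to glucocorticoid and feeding signals. It showed no called diet difference, with log2 fold changes of 0.13, -0.13 and 0.18 (95% intervals -0.39 to 0.64, -0.65 to 0.39 and -0.30 to 0.66). The direction turned with the macrophage covariate at 8 and 34 weeks and with array weights at 20 and 34 weeks. HFD mice at 34 weeks were spread from 53.7 to 186 CPM, 4 of them above all CD mice and 1 below. Cry2 (Entrez 12953, chr2:92403646-92434085, minus strand), a cryptochrome repressor, was at 93.6 ± 17.6 and 84.0 ± 6.43 CPM at 8 weeks, 115 ± 28.5 and 91.9 ± 23.1 CPM at 20 weeks, and 95.5 ± 24.6 and 76.9 ± 19.7 CPM at 34 weeks (CD and HFD, SD). The log2 fold changes of -0.14, -0.32 and -0.31 were not called (adjusted p = 0.524, 0.108 and 0.115). With TMM factors Cry2 was called lower at 20 and 34 weeks (-0.54 and -0.40, adjusted p = 0.00698 and 0.0401), as it was with median-of-ratios factors and with edgeR. Cry2 was also called lower without HFD mouse 4 at 20 weeks (-0.42) and without HFD mouse 1 at 34 weeks (-0.40).

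Nr1d1 separated the diets most steadily. Nr1d1 (Entrez 217166, chr11:98767932-98775377, minus strand) encodes REV-ERB alpha, the haem-binding repressor of Arntl. Its level was 337, 373 and 522 CPM (lowest, median and highest) on CD and 112, 172 and 209.9 CPM on HFD at 8 weeks. At 20 weeks it was 422, 453 and 614 CPM on CD and 141, 195 and 249 CPM on HFD. Every HFD mouse lay below every CD mouse at both times. At 34 weeks the CD mice spread from 182 to 667 CPM around a median of 403 CPM, and the HFD mice ran from 109.6 to 276 CPM around 157 CPM, so that 2 CD mice (mouse 1 at 238 and mouse 5 at 182 CPM) reached into the HFD range and 4 of 6 HFD mice lay below all CD mice. The same CD mice 1 and 5 had macrophage sums of 4284 and 9237 CPM, inside the HFD range of that time, as had mouse 2 (6181 CPM, Nr1d1 369 CPM). The log2 fold changes were -1.21 (SE 0.235, adjusted p = 1.49e-04), -1.30 (SE 0.235, adjusted p = 2.11e-05) and -1.21 (SE 0.220, adjusted p = 1.21e-04), and Nr1d1 was called lower at each time under every setting tried, including each mouse left out in turn.

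Nr1d2 (Entrez 353187, chr14:18204056-18239106, minus strand) encodes REV-ERB beta, which shares targets with REV-ERB alpha. At 8 weeks its level was 95.2, 108 and 115 CPM on CD and 48.2, 62.0 and 65.7 CPM on HFD, and at 20 weeks 103, 118 and 145 CPM on CD and 63.2, 75.1 and 84.0 CPM on HFD. The diets were again fully apart at both times, with log2 fold changes of -0.82 (SE 0.184, adjusted p = 7.26e-04) and -0.69 (SE 0.184, adjusted p = 0.00195). At 34 weeks CD mice had come down to a median of 71.7 CPM and HFD mice were at 60.3 CPM, and the difference of -0.24 was not called (adjusted p = 0.265). No overlap between the diets was seen for Nr1d1, Nr1d2 and Tef at 8 and at 20 weeks, all with HFD lower, and for none of the 10 genes at 34 weeks. Over all genes tested the diets did not overlap, with HFD lower, in 7.14%, 11.1% and 0.986% of genes at the 3 times.

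**Figure D2:**
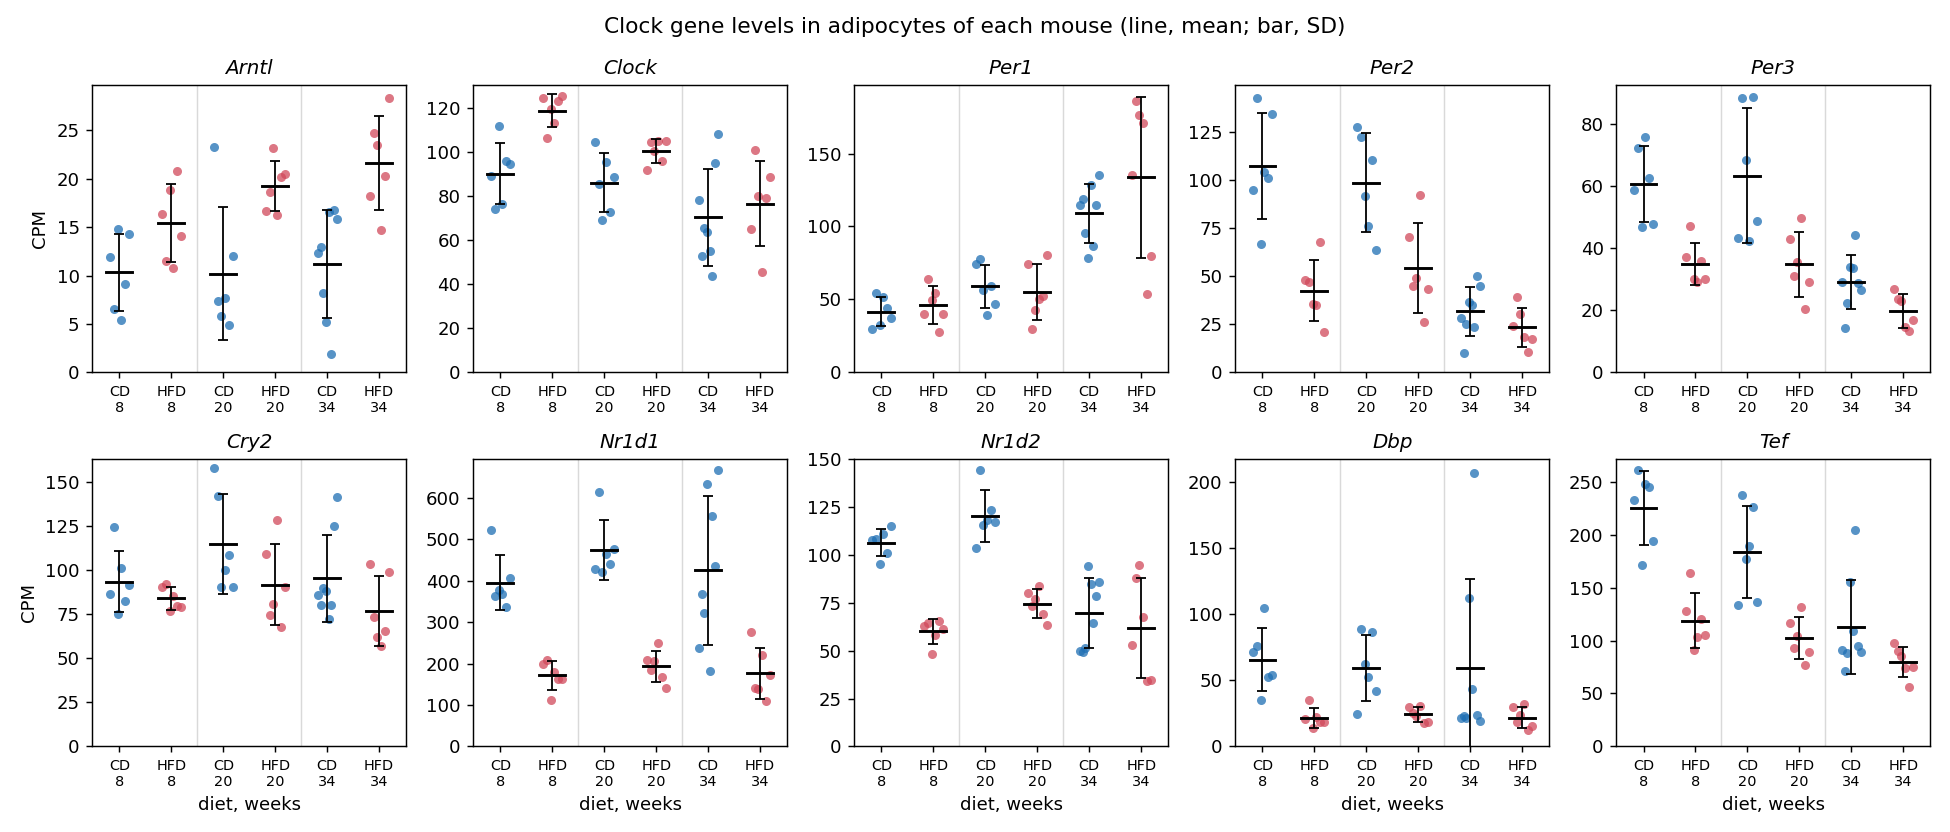
CPM of each clock gene (y axes from 0) in every mouse, by diet (CD blue, HFD red) and weeks on diet (x axes), with the mean as a line and the SD as a bar, cut at 0 for Dbp in CD mice at 34 weeks. Nr1d1, Nr1d2 and Tef show separate clouds for the diets at 8 and 20 weeks, and Per1 lies highest at 34 weeks in both diets.

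Dbp was lower on HFD at 8 and 20 weeks and Tef at all 3 times. Dbp (Entrez 13170, chr7:45705100-45710203, plus strand) encodes a PAR bZIP activator with one of the widest daily swings of any transcript. At 8 weeks its level was 35.3, 62.7 and 104 CPM on CD and 13.6, 19.9 and 35.5 CPM on HFD, with 5 of 6 HFD mice below all CD mice. At 20 weeks it was 24.7, 57.2 and 88.7 CPM on CD and 17.4, 24.3 and 30.9 CPM on HFD, with 3 of 6 below all CD mice. At 34 weeks 6 CD mice lay between 19.2 and 43.1 CPM, close to the HFD range of 12.1 to 32.1 CPM, while CD mice 4 and 6 reached 113 and 207 CPM. The log2 fold changes were -1.55 (SE 0.415, adjusted p = 0.00338), -1.17 (SE 0.415, adjusted p = 0.0162) and -0.88 (SE 0.388, adjusted p = 0.064), the last becoming -0.54 without CD mouse 6 and passing the threshold without any one of 6 mice of that time (CD mice 1, 2, 3, 7 and 8 and HFD mouse 1). With edgeR the 34-week value was -1.58 and was called (adjusted p = 0.00674). At that time edgeR called 6 of the 10 genes and 4478 of all 10343 genes. With the macrophage covariate Dbp was called at 8 weeks and not at 20 weeks (-0.55, adjusted p = 0.393).

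Tef (Entrez 21685, chr15:81802673-81826863, plus strand), a close relative of Dbp, was at 172, 239 and 261 CPM on CD and 91.1, 113 and 164 CPM on HFD at 8 weeks. At 20 weeks it was 134, 183 and 237 CPM on CD and 77.3, 98.6 and 132 CPM on HFD. The diets did not overlap at either time, by a small margin at each. Log2 fold changes were -0.93 (adjusted p = 3.26e-04) and -0.83 (adjusted p = 5.04e-04), the second not called with the macrophage covariate (-0.49, adjusted p = 0.0734). At 34 weeks medians were 92.8 and 80.0 CPM and the log2 fold change was -0.44 (adjusted p = 0.0491), a call that was lost in 23 of the 38 fits that left out 1 mouse.

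Some members lie over genes on the opposite strand, and the strand used in counting is not given in the sources used here. Exons of Nr1d1 overlap Thra, those of Dbp overlap Sphk2, and those of Arntl, Cry2 and Tef overlap Gm45355, D930015M05Rik and Gm17597. Thra, a thyroid hormone receptor, had log2 fold changes of -0.28, -0.42 and -0.31 at the 3 times, in the same direction as those of Nr1d1 and smaller. In Thra 3, 6 and 4 of 6 HFD mice lay below every CD mouse of their time. At 20 weeks 11.1% of all genes tested had every HFD mouse lower. Sphk2, a sphingosine kinase, was higher on HFD at all 3 times (0.38, 1.02 and 0.44, adjusted p = 0.0154, 1.57e-07 and 0.00399). D930015M05Rik and Gm17597 reached at most 0.153 and 0.352 CPM in any mouse.

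Between 8 and 34 weeks on chow Per1 rose, and Per2, Per3, Tef, Nr1d2 and Clock fell. These were 6 of the 10 genes, against 64.7% of all genes tested. Per1 rose by 1.38 on the log2 scale (SE 0.238, adjusted p = 9.45e-06), from 41.6 ± 10.1 CPM (SD, n = 6) to 109 ± 20.0 CPM (SD, n = 8), with every 34-week mouse above every 8-week mouse. Per2 had the largest fall of the 10 genes, a log2 fold change of -1.82 (adjusted p = 4.37e-06) from 108 ± 27.7 to 31.7 ± 12.8 CPM. Per3 (-1.07), Tef (-1.06), Nr1d2 (-0.64) and Clock (-0.40, adjusted p = 0.0222) also fell, and the call of Clock was lost with array weights (-0.20), without CD mouse 3 of 8 weeks and without CD mouse 2 or 6 of 34 weeks. Per1, Per2, Per3 and Nr1d2 did not overlap between the ages, where 24.7% of all genes did not. Nr1d1, Cry2 and Arntl differed by -0.01, 0.01 and -0.02, with adjusted p from 0.955 to 0.98, and Dbp by -0.66 (adjusted p = 0.132).

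In HFD mice 5 of the 10 genes were called between 8 and 34 weeks, against 52.5% of all genes. Per1 was higher (1.43, adjusted p = 3.02e-05), and Clock (-0.66), Per2 (-0.86), Per3 (-0.82) and Tef (-0.57) were lower, Per2 losing its call without HFD mouse 5 of 8 weeks or HFD mouse 5 of 34 weeks. Clock and Per3 did not overlap between these ages, against 24% of all genes. Nr1d1 and Dbp differed by 0.00 each (95% intervals -0.48 to 0.48 and -0.84 to 0.85). With the macrophage covariate only Clock and Per1 were called here, whereas all 6 genes were still called in CD mice. Over all genes that fit called 2870 in HFD mice in place of 5432, and 5859 in CD mice in place of 6696. Between 8 and 20 weeks limma called none of the 10 genes in either diet, with 0 at an unadjusted p under 0.05 in both. Of all genes 3.58% were called there in CD mice and 36.5% in HFD mice. edgeR also called 0 of the 10, and array weights called Clock, Per2 and Nr1d2 in HFD mice. In HFD mice edgeR called 4048 and array weights 6392 of all 10343 genes, in place of 3772. Clock in HFD mice ran from 92.0 to 105 CPM at 20 weeks, just below the 106 to 126 CPM of 8 weeks. Its log2 fold change was -0.24 (limma adjusted p = 0.253). The share of all genes without overlap between those ages was not counted.

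Whether the diet difference itself changed with time was tested as an interaction. Limma called 0 of the 10 genes for 20 against 8 weeks, for 34 against 8 weeks and for 34 against 20 weeks, where 4.49%, 28.8% and 10.5% of all genes were called. At an unadjusted p under 0.05 the counts were 0, 2 and 0, the 2 being Per2 (0.96, adjusted p = 0.0938) and Nr1d2 (0.58, adjusted p = 0.0788) at 34 against 8 weeks. For that term edgeR called Nr1d2, array weights called Clock, and neither called a member for the other 2 terms. Over all genes edgeR called 3058 and array weights 4106 at 34 against 8 weeks, in place of 2982. At 20 against 8 weeks they called 484 and 4263 of all 10343 genes, in place of 464. At 34 against 20 weeks they called 1272 and 3407, in place of 1089. For Nr1d1 the change was 0.01 (95% interval -0.65 to 0.67) between 8 and 34 weeks. Dbp, called at 8 and not at 34 weeks, had a change of 0.66 (95% interval -0.49 to 1.82, adjusted p = 0.397).

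Arntl and Dbp peak at opposite ends of the day, so their ratio within a mouse moves with the phase of the clock. It also moves with the level of either gene, so it does not by itself place a mouse in the cycle. Library scaling largely cancels in the ratio, except where Arntl is low beside the 1 CPM added. The log2 ratio of Dbp to Arntl (each as CPM + 1) was 2.56 ± 1.02, 2.49 ± 1.40 and 1.91 ± 2.13 in CD mice (SD, n = 6, 6 and 8) and 0.44 ± 0.725, 0.29 ± 0.486 and -0.04 ± 0.772 in HFD mice (SD, n = 6 each) at 8, 20 and 34 weeks. HFD mice were thus lower by 2.12, 2.20 and 1.95 on the log2 scale. In all, 5, 3 and 4 of 6 HFD mice lay below every CD mouse of their time, and 1, 1 and 4 CD mice lay inside the HFD range. The CD mice were also spread among themselves, from 0.26 to 6.18 at 34 weeks, where mice 4 and 6 had Arntl at 5.15 and 1.86 CPM beside their high Dbp.

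**Figure D3:**
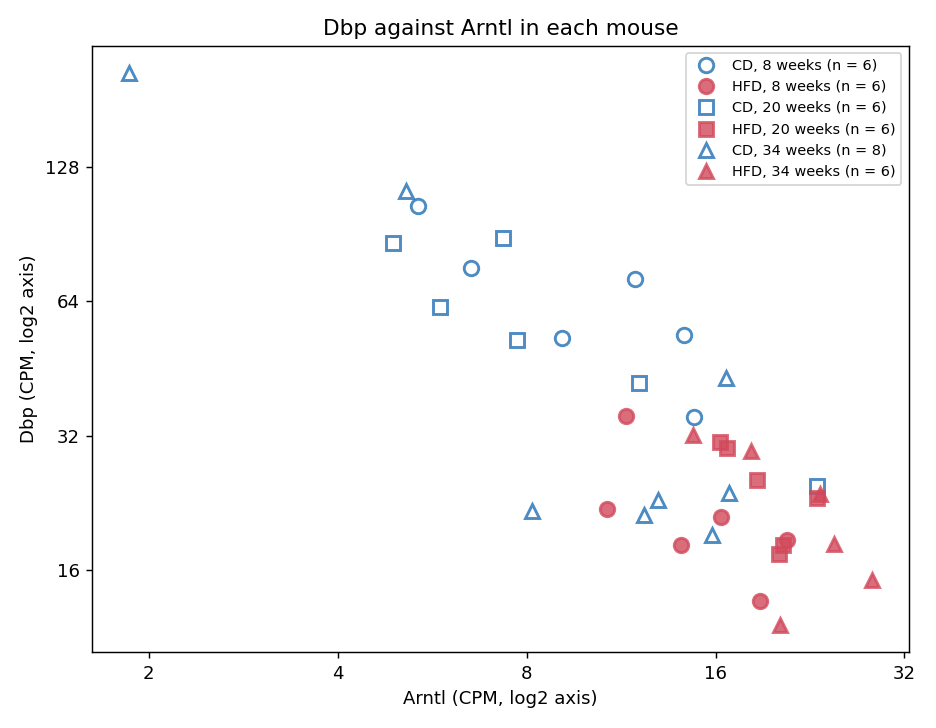
Dbp (y axis) against Arntl (x axis), both in CPM on log2 axes, with 1 point for each of 38 mice (CD open blue, HFD filled red; circles 8, squares 20 and triangles 34 weeks). CD mice run from high Dbp with low Arntl to the lower right, where the HFD mice gather along with CD mouse 1 of 20 weeks and several CD mice of 34 weeks.

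A shift of phase would move the members in a set order, but these data hold 1 time of day per mouse. That time followed the morning fast, with no hour given for any single mouse. Hour of collection, phase and amplitude therefore cannot be told apart from diet, or from time on diet, by the labels. Of the 6 CD mice whose ratio lay inside the HFD range, 5 had Nr1d1 above all HFD mice of their time and 1 lay inside. By the same count Per2 lay above in 3 of the 6, and Nr1d2, Per3, Tef, Hlf and Nfil3 in 2 each. In Nr1d1 all CD mice of 34 weeks but mice 1 and 5 lay above every HFD mouse, whatever their ratio. At 8 and 20 weeks every CD mouse lay above all HFD mice in Nr1d1. The order was thus given in advance for the 2 mice of those times. Among them CD mouse 1 of 20 weeks had Arntl at 23.2 and Dbp at 24.7 CPM, like an HFD mouse, with Nr1d1 at 428 CPM against 141 to 249 CPM on HFD.

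With the ratio of each mouse as a covariate, a fit added after the data had been seen, Nr1d1 remained lower on HFD by log2 fold changes of -0.93, -1.01 and -0.95 (limma adjusted p = 0.00389, 0.00128 and 0.00425). Nr1d2 was called at 8 and 20 weeks (-0.67 and -0.53), Tef at the same times (-0.46 and -0.34), and Per2 at 8 weeks (-1.29). Per2 at 20 weeks came to -0.84, beside -0.91 without the covariate, and was not called (adjusted p = 0.0577). Per3 and Clock were not called at any time, and Tef at 34 weeks came to -0.00. Of all genes tested 34.9%, 44.4% and 22.4% were called in that fit. The ratio is made from 2 members that themselves differ with diet, so this fit removes what moves with Dbp and Arntl and cannot tell phase from any other cause of their difference.

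**Figure D4:**
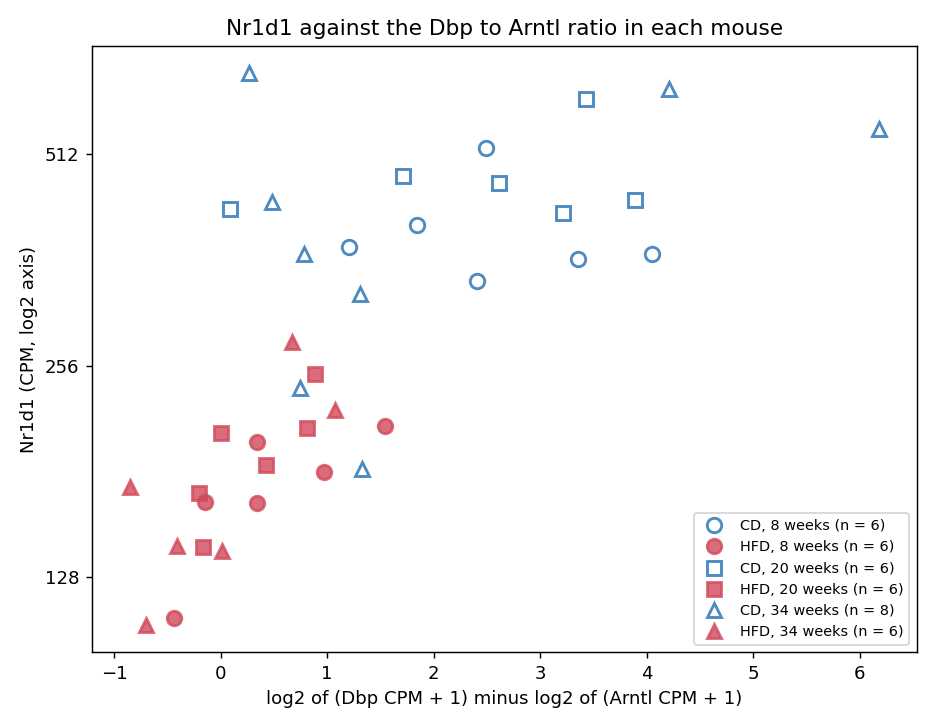
Nr1d1 in CPM on a log2 axis (y) against the log2 ratio of Dbp to Arntl (x) in each of 38 mice, symbols as for the plot of Dbp against Arntl. At ratios between 0 and 1.5, where both diets have mice, most CD mice lie above the HFD mice in Nr1d1.

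Within groups the members varied together to different degrees. Deviations of each mouse from its group mean were correlated over 38 mice, a description without a test whose points share their library and their depth. Dbp went with Tef (r = 0.89) and against Arntl (r = -0.83), and Tef went with Per3 (r = 0.86). Nr1d1 was looser, at 0.45 with Dbp and -0.32 with Arntl, and Per1 stood near 0 against Dbp (0.05) and Arntl (0.02). Over all 10343 genes, those most like Dbp were Tef, Pcsk4 (0.83), Bhlhe41 (0.81), Slc5a6 (0.80) and Hlf (0.78), and those most opposed were Arntl, Slc7a8, Septin9, Map4k4 and Dock8, from -0.83 to -0.80. Those most like Arntl were Dtx4, Map4k4, Man1a, Sh3pxd2b and Ankrd50, from 0.83 to 0.80, and those most opposed were Dbp, Slc5a6, Sdhb, Atp5c1 and Nit2, from -0.83 to -0.74.

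Of 10 other core genes, 6 were high enough to test. Limma called 3, 3 and 0 of them lower on HFD at 8, 20 and 34 weeks and none higher, with 0 at an unadjusted p under 0.05 at 34 weeks. Of all genes 15.1%, 18.7% and 15.7% were called lower at the 3 times. Hlf, the third PAR bZIP activator, was at 15.3 ± 4.47 and 4.57 ± 1.23 CPM at 8 weeks and 11.6 ± 5.03 and 3.51 ± 0.572 CPM at 20 weeks (CD and HFD, SD, n = 6 each), with log2 fold changes of -1.52 and -1.39 and no overlap of the diets at either time.

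Nfil3 encodes the repressor of D-boxes and is placed with Arntl near dawn in textbook order. It was lower on HFD at 8 weeks (-0.85, adjusted p = 0.00195) and at 20 weeks (-0.99, adjusted p = 2.05e-04), where Arntl was higher. Cry1, also of that phase, was not called (-0.22, -0.30 and 0.33). Bhlhe40, a further E-box repressor, was lower at 8 weeks (-0.54, adjusted p = 0.0477) and not called at 20 or 34 weeks. Rora was lower at 20 weeks (-0.47, adjusted p = 0.0135). Npas2, the stand-in for Clock, was too low to test, at a median of 0.348 and 0.987 CPM at 8 weeks, 0.75 and 3.54 CPM at 20 weeks, and 2.49 and 5.19 CPM at 34 weeks on CD and HFD.

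Of 15 kinases, ubiquitin ligases and partners listed, 14 were tested, and 0, 2 and 4 were higher and 4, 3 and 1 lower on HFD at the 3 times, fewer in all than the 44.9%, 57% and 43.2% called over all genes would give. Csnk1a1, a casein kinase, was lower at 8 and 20 weeks (-0.56 and -0.43), and Csnk1d, the kinase that marks PER proteins for decay, was higher at 20 and 34 weeks (0.31 and 0.16). Csnk1e, a close relative of Csnk1d, was lower at 8 weeks (-0.34) and higher at 34 weeks (0.30). Usp2, a deubiquitinase under clock control, was lower at 8 and 20 weeks (-0.67 and -0.73). A separate list of 4 clock outputs, Usp2 again among them, had 3 tested genes. Of these, 0, 1 and 1 were higher and 2, 2 and 0 lower on HFD, beside the same shares of all genes. Wee1, a cell-cycle kinase of that list with E-boxes in its promoter, was higher at 20 and 34 weeks (1.25 and 1.49). Nampt, the enzyme of NAD salvage and a known clock output, was lower at 8 and 20 weeks (-0.58 and -0.59, adjusted p = 4.05e-05 and 9.88e-06) and, as for Hlf (1.33 and 1.20), the change of that difference was called at 34 against 8 and 34 against 20 weeks (0.64 and 0.65).

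Signals such as glucocorticoids and temperature can reset peripheral clocks. Of 6 genes that answer to glucocorticoid or temperature, 1, 2 and 2 were higher and 2, 3 and 1 lower on HFD at the 3 times. The other 3, 1 and 3 were not called, where 44.9%, 57% and 43.2% of all genes were called. Fkbp5, a glucocorticoid target, was lower at 8 and 20 weeks (-1.09 and -0.996), while Tsc22d3, also a glucocorticoid target, was higher at the same times (0.80 and 0.87). Sgk1 was higher at 20 and 34 weeks (1.26 and 1.45), and Zbtb16 was lower at those times (-0.77 and -1.34). Cirbp, the cold-inducible RNA-binding protein, was lower at 8 and 20 weeks (-0.48 and -0.46). Rbm3, the other temperature gene of the list, did not follow it. Its means on CD and HFD were 113 and 106 CPM at 8 weeks, 113 and 127 CPM at 20 weeks, and 141 and 179 CPM at 34 weeks. All 6 HFD mice lay above the CD mean of Rbm3 at 20 and at 34 weeks. The part of these signals in the differences of the clock genes was not tested.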

How the data were processed

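The 114 labelled samples were 38 mice with 3 technical replicates each, which the authors merged, so the table holds 1 column per mouse. Per the labels and the study's methods, reads of a stranded poly(A) library were aligned with STAR 2.5.2b to mm10 and counted over exons with featureCounts (Subread 1.5.1). The deposited values are CPM that sum to 1000000 per mouse. All values above 0 (100%) were whole reads within 0.1, so reads were recovered for edgeR. The mice were the replicates, and columns carried the group and a mouse number. Levels were tested as log2(CPM + 1) with limma 3.58.1 (trended variance, two-sided, 6 groups fitted together, 32 residual degrees of freedom, R 4.3.3) over 10343 genes with a mean above 2, and fold changes on that scale understate those of low genes. edgeR 4.0.16, other scalings, filters, weights, covariates, single-time fits and each mouse left out were alternatives. All members are named, other listed genes could be named where called (1 listed gene is not reported here), and the likeness lists hold the 5 highest and 5 lowest correlations. The members and lists were chosen with earlier results of these data known. The fit was tested on simulated data. No pair of mice within a group was alike to sampling noise (lowest chi-square per degree of freedom 10.6 over 103 pairs). Same-numbered CD and HFD mice did not deviate together. Positions and promoters are from RefSeq (GRCm38.p6), and overlaps from GENCODE. The 38 libraries limit precision through the spread between mice, since 1 read was at most 0.108 CPM. Control chow was 1 of 2 formulas in the methods, not separated in the labels.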

Additional observations from a re-analysis of the deposited data

Results flagged for a closer look

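Nr1d1 stood apart in 2 mice among the 66 groups of values examined, a rate near the 1 in 20 that chance gives or lower. In CD mice at 8 weeks, mouse 1 had Nr1d1 at 522 CPM while the others lay between 337 and 406 CPM. In CD mice at 20 weeks, mouse 2 had Nr1d1 at 614 CPM while the others lay between 422 and 477 CPM. Both were the highest of their group, and the difference between the diets was called without either.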

How the results depend on the processing

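The diet count at 8 weeks lay between 5 and 8 of 10 genes over the other settings. The lowest count came with the macrophage covariate, where 3947 of all genes were called, and the highest with array weights, where 7032 were. At 20 weeks it was 7 and became 2 (Nr1d1 and Nr1d2) with the macrophage covariate, a fit that called 3499 of all genes in place of 5894. At 34 weeks it was 4 and became 2 without the filter (Arntl and Nr1d1), 2 with the mice of that time fitted alone, 7 with array weights and 1 (Nr1d1) with the macrophage covariate. Of all 10343 genes, array weights called 4103 and the macrophage covariate 1088 at 34 weeks, in place of 4468. Without the filter 5423 of 21166 genes were called. Leaving out 1 mouse gave 2 to 6 at 34 weeks: 2 (Arntl and Nr1d1) without CD mouse 4, 5 or 6 or HFD mouse 4, 5 or 6, and 6 without HFD mouse 1. Leaving out the 3 CD mice of 34 weeks (1, 2 and 5) with macrophage sums inside the HFD range, an alternative chosen after seeing the data like the ratio covariate, gave 6 at 34 weeks. Calls over all genes were not counted for that fit, for the single-time fits or for the fits without 1 mouse. Whether those changes in count are particular to the clock genes is therefore not known. The count for 34 against 8 weeks in HFD mice was 5 and became 2 with the macrophage covariate, and that for 20 against 8 weeks in HFD mice was 0 and became 3 with array weights. Calls over all genes went from 5432 to 2870 in the first case and from 3772 to 6392 in the second. For the diet difference at 34 against 8 weeks, 0 became 1 with edgeR (Nr1d2), 1 with array weights (Clock) and 1 with the mouse number as a replicate block (Per2), and 0 to 2 when 1 mouse was left out (Tef without CD mouse 6, Nr1d2 without HFD mouse 6, Per2 and Nr1d2 without HFD mouse 5, all of 34 weeks). With the replicate block the diet counts were 7, 7 and 4, Per3 losing and Dbp gaining its call at 34 weeks. Of all 10343 genes that fit called 4574, 5905 and 4520 at the 3 times. For the diet difference at 34 against 8 weeks it called 3185. The numbers did not pair the mice, since 18 same-numbered pairs correlated from -0.51 to 0.53 and 3 CD mice correlated best with their own number. Directions that turned were all of uncalled values: Per1 at 20 and 34 weeks and Clock at 34 weeks with array weights (0.033, -0.40 and -0.025), Per1 at 8 and 34 weeks with the macrophage covariate (-0.12 and -0.11), Per1 at 20 weeks without HFD mouse 2 (0.028, in a range of -0.25 to 0.028 over single mice left out), and Clock at 20 and 34 weeks with the ratio covariate (-0.10 and -0.16). The cause of these changes was not tested. The log2 ratio of Dbp to Arntl differed between diets by -2.39 to -1.82, -2.68 to -1.92 and -2.18 to -1.34 when 1 mouse was left out.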
